A study of Caenorhabditis elegans with 2 samples.

Results

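The regions described here are the anti-GFP ChIP-seq peaks of early Caenorhabditis elegans embryos that lie at tRNA genes. A peak of the pooled list was kept when its summit lay within 500 bp of a nuclear tRNA gene, overlapping kept peaks were merged, and each merged region was given the values of the peak of highest signal in it. This kept 508 of 30000 peaks, which merged into 411 regions, out of 26595 when all pooled peaks were merged in the same way. They are called tRNA regions below.

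The study has a single group of 2 biological replicates, and no other genotype or treatment was compared. Both came from strain OP756, in which the integrated transgene wgIs756 carries ceh-13 with a TY1, EGFP and 3xFLAG tag plus unc-119(+), in worms with the unc-119(tm4063) mutation. The embryos were of mixed sex, were aged 2 hours and were obtained by bleaching, and chromatin of whole embryos was precipitated with an antibody against GFP. CEH-13 is a Hox transcription factor related to labial of the fly. The line is a single transgenic strain, the antibody targets the tag and not the native protein, and signal is summed over all cells of the embryo. Both replicates were called by the authors against the same control alignment, and an embryo sample without the tagged protein was not analysed here. The part of that control in the values below was not tested.

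tRNA genes are transcribed by RNA polymerase III. Their promoter lies inside the gene: the factor TFIIIC binds an A box near the start and a B box in the stretch that encodes the T loop of the tRNA, and then places TFIIIB just upstream of the gene, which recruits the polymerase. Transcription ends at a short run of T on the coding strand just after the gene. Nematode genomes hold many tRNA genes, scattered over all chromosomes, often inside introns of protein-coding genes and often in sets of identical sequence.

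The sequences below show the genes on which the results turn, as they stand in the reference assembly (WBcel235, the same assembly as ce11), 5′ to 3′ on the strand of the gene. Each run holds the gene and the next 20 bases; capitals mark the A box, the B box (GTTCNANNC) and the T run, in that order, where a match was found. The first 5 are genes of known product. C04A11.t1 (tRNA-Leu, chrX:13665555-13665673, plus strand) lies under the strongest tRNA region and has an intron of its own. F57F5.t1 (tRNA-Ile, chrV:12002176-12002260, plus strand) also has an intron. F29C4.t1 (tRNA-Arg, chrIV:143982-144054, plus strand) is 1 of 2 identical genes that were both strong. C16B8.t2 (tRNA-Pro, chrX:3970096-3970167, plus strand) had a strong region without an exact B box. K11H12.t1 (chrIV:658181-658266, plus strand) is the selenocysteine tRNA gene, which was weak. C52E12.t1 (chrII:7001627-7001698, plus strand) is annotated as a tRNA pseudogene and had a strong region.
C04A11.t1: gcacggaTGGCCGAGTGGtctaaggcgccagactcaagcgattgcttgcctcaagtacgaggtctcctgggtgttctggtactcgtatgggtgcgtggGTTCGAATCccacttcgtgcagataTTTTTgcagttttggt
F57F5.t1: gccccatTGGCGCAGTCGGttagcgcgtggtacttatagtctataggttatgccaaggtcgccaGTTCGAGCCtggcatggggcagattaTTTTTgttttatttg
F29C4.t1: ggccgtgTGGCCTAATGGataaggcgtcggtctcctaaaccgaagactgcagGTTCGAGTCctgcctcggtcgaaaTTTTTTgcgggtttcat
C16B8.t2: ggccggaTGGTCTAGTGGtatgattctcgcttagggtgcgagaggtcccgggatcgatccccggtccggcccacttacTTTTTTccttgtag
K11H12.t1: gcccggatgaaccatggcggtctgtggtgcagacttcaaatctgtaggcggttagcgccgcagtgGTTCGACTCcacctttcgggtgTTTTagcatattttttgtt
C52E12.t1: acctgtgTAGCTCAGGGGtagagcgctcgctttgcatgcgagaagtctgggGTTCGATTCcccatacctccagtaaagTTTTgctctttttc

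The next 3 pairs are each the strongest and the weakest measured copy of a set of identical genes, shown with 30 bases before the gene, because copies can be told apart only by what surrounds them. ZK563.t1 (chrX:3371422-3371493, minus strand) and K08H2.t1 (chrX:13261203-13261274, plus strand) belong to a set of 15 tRNA-Thr genes. C33G3.t2 (chrX:14063946-14064018, minus strand) and ZK994.t2 (chrV:8499564-8499636, minus strand) belong to a set of 14 tRNA-Lys genes. R04A9.t1 (chrX:410391-410462, plus strand) and C10G8.t1 (chrV:5330139-5330210, minus strand) belong to a set of 15 tRNA-Gln genes. Within each pair the boxes are the same and the bases before the gene differ.
ZK563.t1: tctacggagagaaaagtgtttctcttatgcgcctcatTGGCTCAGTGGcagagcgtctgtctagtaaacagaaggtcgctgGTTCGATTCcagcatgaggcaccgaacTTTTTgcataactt
K08H2.t1: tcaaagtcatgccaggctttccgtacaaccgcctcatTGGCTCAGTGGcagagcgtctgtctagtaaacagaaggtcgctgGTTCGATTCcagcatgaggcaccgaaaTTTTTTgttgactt
C33G3.t2: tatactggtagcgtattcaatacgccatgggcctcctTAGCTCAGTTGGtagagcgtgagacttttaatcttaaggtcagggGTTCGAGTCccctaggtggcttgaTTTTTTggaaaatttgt
ZK994.t2: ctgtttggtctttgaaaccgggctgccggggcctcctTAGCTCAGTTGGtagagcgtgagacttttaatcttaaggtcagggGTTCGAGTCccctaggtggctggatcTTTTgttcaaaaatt
R04A9.t1: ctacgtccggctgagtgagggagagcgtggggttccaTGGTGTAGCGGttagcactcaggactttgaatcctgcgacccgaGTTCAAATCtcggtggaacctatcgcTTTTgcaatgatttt
C10G8.t1: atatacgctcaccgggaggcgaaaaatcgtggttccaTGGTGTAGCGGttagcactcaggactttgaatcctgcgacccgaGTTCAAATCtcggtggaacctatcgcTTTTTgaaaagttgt

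tRNA regions were far more frequent among strong peaks than among weak ones. Of the 411 tRNA regions, 192 (46.7%, 95% Wilson interval 41.9 to 51.5) held a peak of the authors' list thresholded by irreproducible discovery rate (IDR), against 1.85% of all merged pooled regions; these 192 are called strong. A q-value under 0.05 was reached in 240 (58.4%, 53.6 to 63.1), against 4.15% of all. Both replicate lists held an overlapping peak for 325 (79.1%, 74.9 to 82.7), against 40.8% of all. The IDR list holds 512 peaks, and 149 tRNA regions (36.3%, 31.8 to 41.0) were overlapped by the strongest 512 peaks of replicate 1 and also by those of replicate 2, against 1.23% of all. The IDR step itself uses agreement of the replicates, so the first and the last of these shares are not independent of each other.

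The signal of a peak is the authors' score, with no scale stated, and rank 1 is the highest signal in a list. The signal of tRNA regions ran from 23.7 to 530, with a median of 77.1 and a median rank of 676, while all merged pooled regions had a median of 32.7. Strong tRNA regions started at 88.2 and had a median of 157; the others had a median of 46.1. By rank, tRNA regions thinned out quickly. Single peaks with a summit at a tRNA gene made up 34% of the 50 strongest pooled peaks, 44% of the 100 strongest and 39.1% of the 512 strongest. Peaks of rank 513 to 1000 lay at tRNA genes in 9.22%, and those of rank 2001 to 5000 in 2.1%. The 20000 weakest peaks did so in 0.555%, and 0.571% of the nuclear genome lies within 500 bp of a tRNA gene. The weak end of the list thus held tRNA peaks about as often as the genome share, and 106 of the 411 regions had a rank over 5000.

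The strong tRNA regions ranked alike in both replicates. Of the 411 regions, 380 were overlapped by a peak of replicate 1 and 349 by a peak of replicate 2, and 7 were found in neither. Across the 325 found in both, which share the control alignment and the sequence of the region, the ranks had a Spearman rho of 0.870. Among the 192 strong regions rho was 0.781, and among the other 133 it was 0.287. Across all merged pooled regions found in both it was 0.254. The 301 merged regions of the IDR list that are not tRNA regions had a rho of 0.612. The Pearson correlation of log2 signal was 0.792 in these 301 and 0.794 in the strong tRNA regions, so such agreement was not particular to tRNA genes. The strong tRNA regions were chosen by a step that uses this agreement, so these are descriptions. Replicate 1 gave the higher rank to 189 of the regions and replicate 2 to 134, and the median ranks were 353 and 543.

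**Figure D1:**
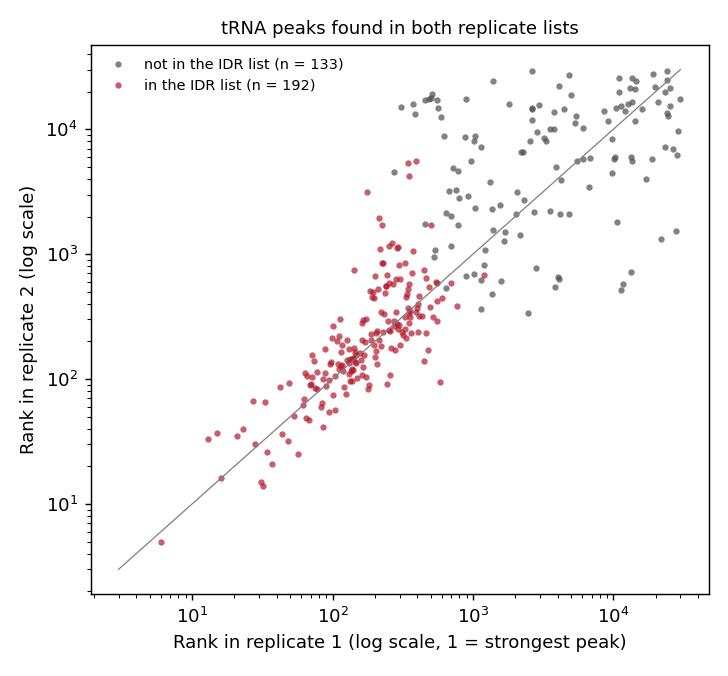
Rank of each tRNA region in the list of replicate 1 (x axis, log scale) and of replicate 2 (y axis, log scale), for the 325 regions found in both; the line marks equal ranks. Regions in the IDR list (red, n = 192) lie along the line at low ranks, and the other 133 (grey) scatter widely.

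The region of highest signal lay at C04A11.t1 (WBGene00000308), a tRNA-Leu gene with anticodon CAA whose sequence is shared with no other annotated nuclear tRNA gene. It spans chrX:13665396-13665982, with the summit 18 bp into the gene, and its signal was 530 in the pooled list (rank 6), 318 in replicate 1 (rank 6) and 208 in replicate 2 (rank 5). It was followed by the tRNA-Lys gene W03G11.t1 on X, with 397 pooled (rank 16), 244 in replicate 1 (rank 16) and 165 in replicate 2 (rank 16). These 2 regions lay between protein-coding genes and held nearly the same rank in every list. C37A2.t1, a tRNA-Cys gene in an intron of cye-1, the cyclin E gene, had a signal of 389 pooled (rank 19), 252 in replicate 1 (rank 13) and 137 in replicate 2 (rank 33). F17H10.t1, a tRNA-Gly gene in an intron of snx-17, a sorting nexin gene, had 383 (rank 20), 249 (rank 15) and 133 (rank 37) in the pooled list and replicates 1 and 2. At both of these intronic genes the rank was higher in replicate 1.

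The rest of the 10 strongest regions covered other amino acids. C28G1.t1 (tRNA-Glu on X) was at pooled rank 23 and at ranks 21 and 35 in replicates 1 and 2. It overlaps an exon of a protein-coding gene, and the summit was 110 bp from a protein-coding 5′ end. The part of that start in its signal was not tested. F29C4.t1 (tRNA-Arg on IV, in an intron of the collagen gene col-99 on the opposite strand) was at pooled rank 24 and at ranks 32 and 14. Its only identical copy, F28H6.t1 on X, lay between genes and was at pooled rank 29 and ranks 34 and 26, so both copies of this tRNA-Arg gene with anticodon CCT were among the 10. sup-5 (tRNA-Trp on III, in an intron of fli-1) is a locus known from nonsense suppressor mutations; it was at pooled rank 25 and at ranks 23 and 40. F15G9.t1 (tRNA-Ala on X, in an intron of him-4, which encodes the extracellular protein hemicentin) was at pooled rank 27 and at ranks 31 and 15, with the tRNA-Ala gene F15G9.t2 under the same region, and C42D8.t1 (tRNA-Ile on X) was at pooled rank 30 and at ranks 28 and 30. All 10 were within the 40 strongest peaks of each replicate. Apart from the region at C04A11.t1, their pooled signals lay between 342 and 397.

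Strong regions differed most between replicates at 3 genes. F10C1.t1 (tRNA-Gly on II) was at rank 176 in replicate 1 and at rank 3170 in replicate 2, 18.0 times lower in the order. R04F11.t1 (tRNA-Asn on V, in an intron of twk-13, a potassium channel gene) was at ranks 344 and 5398, and F52C9.t1 (tRNA-Thr on III) at ranks 390 and 5521. All 3 were stronger in replicate 1, and their pooled ranks were 289, 461 and 464.

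Counted by gene, 469 of 612 nuclear tRNA genes (76.6%, 73.1 to 79.8) had a tRNA region within the limit and 214 (35.0%, 31.3 to 38.8) had a summit of an IDR peak there, called strong genes below. By the same rule 39.7% of 209 tRNA pseudogenes had a pooled peak. The share of other genome windows of that size with a pooled summit was not measured. In a single replicate, a gene is called strong when 1 of the 512 strongest peaks has its summit within 500 bp. That held for 36.1% of the genes in replicate 1 and for 29.4% in replicate 2. The same 167 genes were strong in the IDR list and in both replicates, 37 in the IDR list and replicate 1 only, 6 in the IDR list and replicate 2 only, and 4 in the IDR list alone. A further 24 genes were strong in a single replicate but not in the IDR list, and 374 in none. Most tRNA regions, 353, had 1 tRNA gene within the limit, 50 had 2 and 8 had 3 or more.

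Other small RNA genes had such regions less often. Of 346 snoRNA genes, which encode guides for RNA modification, 63.0% had a pooled peak found by the same rule and 17.9% (14.2 to 22.3) a strong one. Of 129 snRNA genes 10.9% (6.58 to 17.4) were strong, and of 209 tRNA pseudogenes 1.44% (0.489 to 4.13). The interval of the tRNA genes lay above all of these in the pooled list, and in each replicate the order of the 4 classes was the same: 36.1%, 18.2%, 10.9% and 1.44% in replicate 1 and 29.4%, 17.6%, 8.53% and 1.44% in replicate 2. The median rank was 676 for tRNA regions, 5032 for regions at snoRNA genes, 7300 at snRNA genes and 13918 at tRNA pseudogenes. Few tRNA regions could be assigned to another class as well, since 6 of the 411, 1 of them strong, were also within 500 bp of another small RNA gene.

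Every standard amino acid was represented. In the IDR list and in each replicate all 20 had at least 3 strong genes. The highest share was that of tRNA-Ala, with 18 of 34 genes strong (52.9%, 36.7 to 68.5) and 50% and 44.1% in replicates 1 and 2. The lowest was that of tRNA-Gln, with 4 of 27 (14.8%, 5.92 to 32.5) and 14.8% and 11.1%. The intervals of these 2 did not overlap, but they are the ends of an order of 20, and each of the other 18 amino acids had an interval that overlapped both. tRNA-Cys had 6 of 13 genes strong (46.2%) and 61.5% in each replicate, and tRNA-Met 9 of 20 (45%), with 60% and 35%. The large families stood close to the value of all genes: tRNA-Gly had 17 of 55 (30.9%), tRNA-Lys 18 of 46 (39.1%), tRNA-Arg 17 of 44 (38.6%) and tRNA-Pro 12 of 42 (28.6%).

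**Figure D2:**
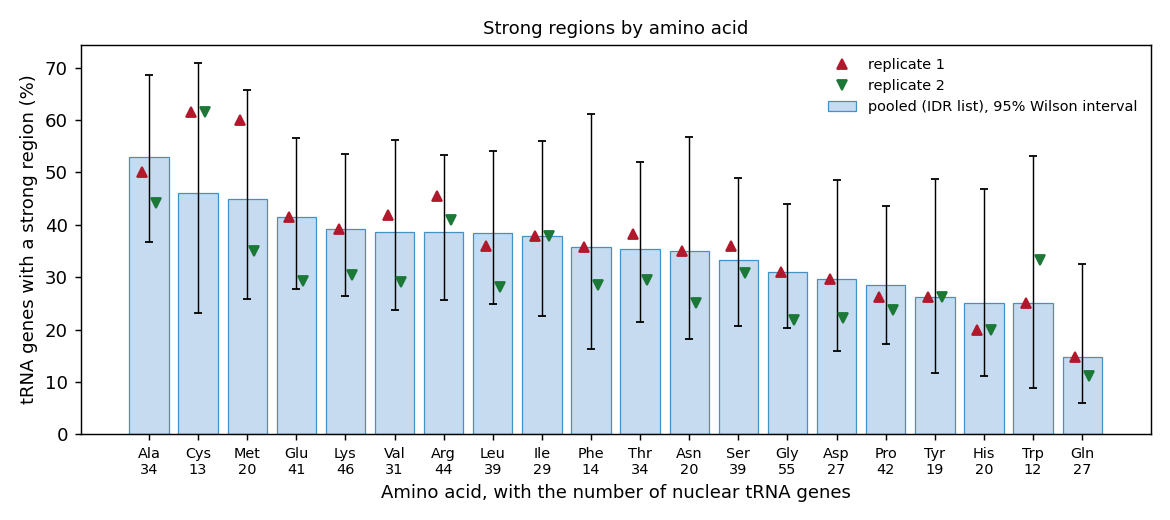
Share of the nuclear tRNA genes of each amino acid with a strong region (y axis, percent), with the number of genes under each name. Bars and lines give the IDR list with its 95% Wilson interval, triangles the single replicates; tRNA-Ala is at 52.9% and tRNA-Gln at 14.8%, and most intervals overlap.

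By anticodon, 43 of the 48 anticodons found had a strong gene, and the 5 without one cover 8 genes in all. Read from the gene sequence, the anticodon matched the annotated product in 589 of 607 genes with a named product. All 3 tRNA-Leu genes with anticodon TAG were strong, but 4 of 20 with AAG were. Among tRNA-Glu genes, 9 of 17 with TTC and 8 of 24 with CTC were strong. Among tRNA-Pro genes, 3 of 4 with CGG and 6 of 31 with TGG were strong. All 16 tRNA-Gly genes with GCC had a tRNA region, against 76.6% of all tRNA genes, and 6 of them were strong. With so few genes, the intervals of such groups are wide (43.9 to 100% for tRNA-Leu with TAG and 8.07 to 41.6% with AAG).

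For the 11 standard amino acids without a gene among the 10, the strongest gene was on X in every case. C02B4.t2 (tRNA-Tyr, in an intron of the nuclear receptor gene nhr-17) was at pooled rank 34, R04D3.t2 (tRNA-Val) at 40 and C06G1.t1 (tRNA-His) at 41. F41D9.t3 (tRNA-Asn) was at pooled rank 48, E03E2.t1 (tRNA-Ser, in an intron of cat-1, a vesicular monoamine transporter gene) at 63 and R01H5.t1 (tRNA-Thr) at 68. F38G1.t2 (tRNA-Asp, in an intron of the fibroblast growth factor gene egl-17) was at 71, F22F1.t6 (tRNA-Met) at 85, R04A9.t1 (tRNA-Gln) at 89, F32A6.t1 (tRNA-Phe, in an intron of the stomatin gene sto-2) at 106 and ZK899.t1 (tRNA-Pro) at 109. X holds 276 of the 612 tRNA genes, and the share of strong genes there was 35.1%. On the other chromosomes it ran from 25.6% on V to 43.9% on II, with 34.8% on I, 42.2% on III and 31.0% on IV. Of the 411 regions, 168 were on X, 59 on V, 49 on IV, 47 on I, 46 on III and 42 on II.

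K11H12.t1, the only gene of its class, encodes the selenocysteine tRNA. In vertebrates this gene is transcribed from promoter elements upstream of it rather than from the usual internal A box. Here it had a weak region with the summit 28 bp upstream of the gene and a signal of 26.4 in the pooled list (rank 24121), 19.1 in replicate 1 (rank 19696) and 14.6 in replicate 2 (rank 21752). All 3 values lie in the range of the weakest listed peaks, where tRNA regions were no more frequent than the genome share. The sequence printed above holds a B box and a T run but no match to the A box on its own strand. It is a single gene, so nothing about its class follows. The 5 tRNA genes with no named product had no tRNA region at all (0 of 5, 95% Wilson interval 0 to 43.4%).

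Genes inside introns and between genes had strong regions about equally often. Of 287 tRNA genes in an intron of a protein-coding gene, 94 were strong (32.8%, 27.6 to 38.4), with 32.8% and 28.6% in replicates 1 and 2. Of 319 intergenic genes 119 were strong (37.3%, 32.2 to 42.7), with 39.5% and 30.4%. The order was the same in each replicate, but the intervals overlap widely. Intronic tRNA genes on the strand of their host gene were strong in 32.9% of 164 and those on the opposite strand in 32.8% of 122. Another 6 tRNA genes overlap an exon of a protein-coding gene, and 1 of them, C28G1.t1, was strong. By region, the gene nearest to the summit was intronic in 205 of the 411 and intergenic in 202, and among the strong ones it was intronic in 91 and intergenic in 100.

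The 287 intronic tRNA genes sit in 223 host genes. The hosts with the most tRNA genes had none that was strong in the IDR list. ajm-1, which encodes a protein of the apical junction of epithelia, holds 5 tRNA-Gln genes, all with a region and none strong. K01A12.3 holds 5 tRNA-Arg and tRNA-Cys genes, 4 with a region. Those 4 share a peak of signal 84.9 (rank 531), just under the lowest strong region at 88.2. It was at rank 2465 in replicate 1 and at rank 339 in replicate 2, so they count as strong in replicate 2. The summit of strong regions was within 500 bp of a protein-coding 5′ end in 33 of 192 and farther away in 159. The tRNA genes themselves are split much the same way, with 93 within that distance and 519 farther away. Counted by gene, 39.8% of 93 tRNA genes within that distance and 34.1% of 519 farther away were strong. Plus-strand and minus-strand tRNA genes were strong in 36.2% and 33.8%.

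tRNA genes with another tRNA gene nearby were strong less often than lone genes. Of 376 tRNA genes with none within 1 kb, 154 were strong (41.0%, 36.1 to 46.0), with 41.2% and 33.2% in replicates 1 and 2. Of 236 with another within 1 kb, 60 were strong (25.4%, 20.3 to 31.3), with 28.0% and 23.3%. The intervals do not overlap, and the order was the same in each replicate. Neighbouring genes can share a peak, so they are not independent, and the intervals do not allow for that. Counted by cluster, at least 1 gene was strong in 28 of 78 clusters of 2 genes and in 4 of 14 of 3 genes. The same held for 2 of 4 clusters of 4 genes, 0 of 2 of 5 and 1 of 2 of 6. All genes were strong in 19 of the 78 clusters of 2. A clustered gene also tends to have copies that are hard to tell apart, so the uniqueness of each gene was measured as the share of 32-base words over the gene and 100 bp to each side that occur once in the genome. Among genes that are at least 75% unique the shares were 44.1% and 28.2%, and among the less unique genes 16.3% and 16.4%. The read length is not given in the sources used here, so the words stand for reads only roughly.

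Divergent pairs had the lowest share of strong genes. Genes in pairs facing each other (3′ ends adjacent, convergent) were strong in 17 of 30 (56.7%, 39.2 to 72.6), with 63.3% and 40% in replicates 1 and 2. In same-strand pairs 20 of 52 were strong (38.5%, 26.5 to 52.0), with 38.5% in each replicate. In pairs with adjacent 5′ ends (divergent) 10 of 74 were strong (13.5%, 7.51 to 23.1), with 13.5% and 10.8%, and in clusters of 3 or more 13 of 80 (16.3%, 9.75 to 25.8). Lone genes, with no tRNA gene within 1 kb, stood at 41.0% (36.1 to 46.0). The intervals of divergent pairs and of clusters of 3 or more lay below theirs, and those of convergent and same-strand pairs overlapped it. The intervals of convergent and divergent genes do not overlap. Among genes at least 75% unique, 45.8% of 24 convergent genes (27.9 to 64.9) were strong, with 54.2% and 25% in replicates 1 and 2. In same-strand pairs 47.5% of 40 such genes were strong, with 47.5% and 45%, so convergent genes no longer stood highest in the pooled list. In divergent pairs 15.5% of 58 such genes (8.38 to 26.9) were strong, with 15.5% and 12.1%, the lowest in every list. Genes of a pair share a peak, so they are not independent: in all 19 pairs with both genes strong, 1 peak lay within 500 bp of both, and which gene it belongs to cannot be resolved. Counted by pair, 7 of 15 convergent, 8 of 26 same-strand and 4 of 37 divergent pairs had both genes strong, and 5, 14 and 31 had neither. Identical genes made up 18 of 37 divergent, 12 of 26 same-strand and 4 of 15 convergent pairs, and the median distance between the genes was 160, 516 and 307 bp. The part of sequence identity and distance in these shares was not tested.

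**Figure D3:**
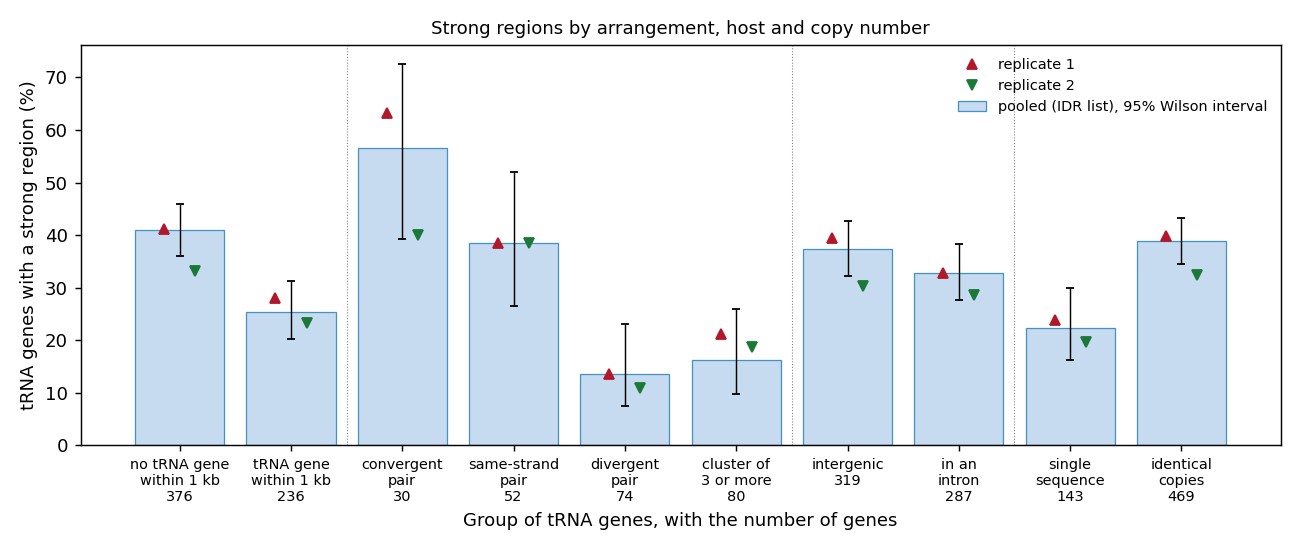
Share of tRNA genes with a strong region (y axis, percent) in groups by neighbouring tRNA genes, pair orientation, host and identical copies, with the number of genes under each name. Bars with lines give the IDR list with its 95% Wilson interval, and triangles the single replicates; the highest bar is that of convergent pairs (56.7%) and the lowest that of divergent pairs (13.5%).

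The large clusters show how uneven neighbours can be. On X, 4 tRNA-Tyr genes (R11.t1 to R11.t4) lie on the same strand: R11.t1 was strong with a signal of 275 pooled (rank 60), 150 in replicate 1 (rank 86) and 127 in replicate 2 (rank 41), while R11.t2 and R11.t3 shared a region at pooled rank 21801 and R11.t4 had none. All 4 belong to a set of 6 identical genes and are 70.8% to 73.5% unique. On IV, 3 of 4 genes of 1 cluster were strong: the tRNA-Ala genes Y65A5A.t1 (rank 240) and Y65A5A.t2 (rank 157) and the tRNA-His gene Y65A5A.t4 (rank 360), but the tRNA-Val gene Y65A5A.t3 between them had no pooled peak. On X, a single peak of signal 243 (rank 85) lay within the limit of 3 genes, F22F1.t5, F22F1.t6 and F22F1.t7. The 6 tRNA-His genes F28H6.t2 to F28H6.t7 had no strong region, and they are 0% to 72.6% unique, and the part of that in their missing peaks was not tested.

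The listed signal differed widely among identical tRNA genes. The 612 genes have 200 distinct sequences: 143 genes have a sequence of their own, and the rest form 57 sets of identical genes. In 42 of these sets, which hold 429 genes, some copies were strong and others were not. Another 6 sets were strong throughout and 9 had no strong gene. Among all genes with an identical copy 38.8% were strong. At that share large sets would mostly hold both kinds if strong genes fell without regard to sequence, so these counts are descriptions. In the set of 15 tRNA-Thr genes printed above, ZK563.t1 had a signal of 236 pooled (rank 93), 158 in replicate 1 (rank 74) and 77.0 in replicate 2 (rank 140). The lowest measured copy, K08H2.t1, had 33.5 (rank 13382), 17.8 (rank 23229) and 21.4 (rank 7197), with the summit inside the gene. Both have the same A box and B box, and both are followed by a T run. Neither the aligner nor the read length is given, so how reads that match several copies were placed is not known. The part of that in the differences between copies was not tested.

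The other pairs were as far apart. In the tRNA-Lys set, C33G3.t2 had a signal of 295 pooled (rank 50), 178 in replicate 1 (rank 53) and 116 in replicate 2 (rank 51), and ZK994.t2, in an intron of the peroxidasin gene pxn-1, had 24.7 (rank 27731), 17.0 (rank 25535) and 21.3 (rank 7262), with the pooled summit 429 bp from the gene. In the tRNA-Gln set, R04A9.t1 had 238 pooled (rank 89), 155 in replicate 1 (rank 78) and 85.2 in replicate 2 (rank 114), and C10G8.t1 had 24.1 pooled (rank 29060) and 16.6 in replicate 1 (rank 26928) and no peak within 500 bp in replicate 2. In both sets the strong copy ranked far above the weak copy in every list that held both. The widest set not shown, 29 tRNA-Gly genes with anticodon TCC, had 9 strong genes, and its signals ran from 252 at M02F4.t1 (rank 76) to 26.2 at K04C2.t1 (rank 24466). Of 24 tRNA-Pro genes with TGG, 6 were strong, from ZK899.t1 (signal 215, rank 109) down to Y7A5A.t3 (24.4, rank 28361). Of 15 tRNA-Ala genes with AGC, 9 were strong, from F15G9.t2 (357, rank 27) down to C56G3.t1 (25.2, rank 26507). F15G9.t2 shares its peak with F15G9.t1, a tRNA-Ala gene of another set to which the summit is nearer. M02F4.t1 shares its peak with the tRNA-Glu gene M02F4.t2. The signal of these shared peaks cannot be assigned to 1 gene. In the set of 12 tRNA-Cys genes with GCA every copy had a tRNA region, and the lowest was 69.3 at K04A8.t3. Where a copy had no region, a fold cannot be given, and 7 of the 29 tRNA-Gly copies were in that state.

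**Figure D4:**
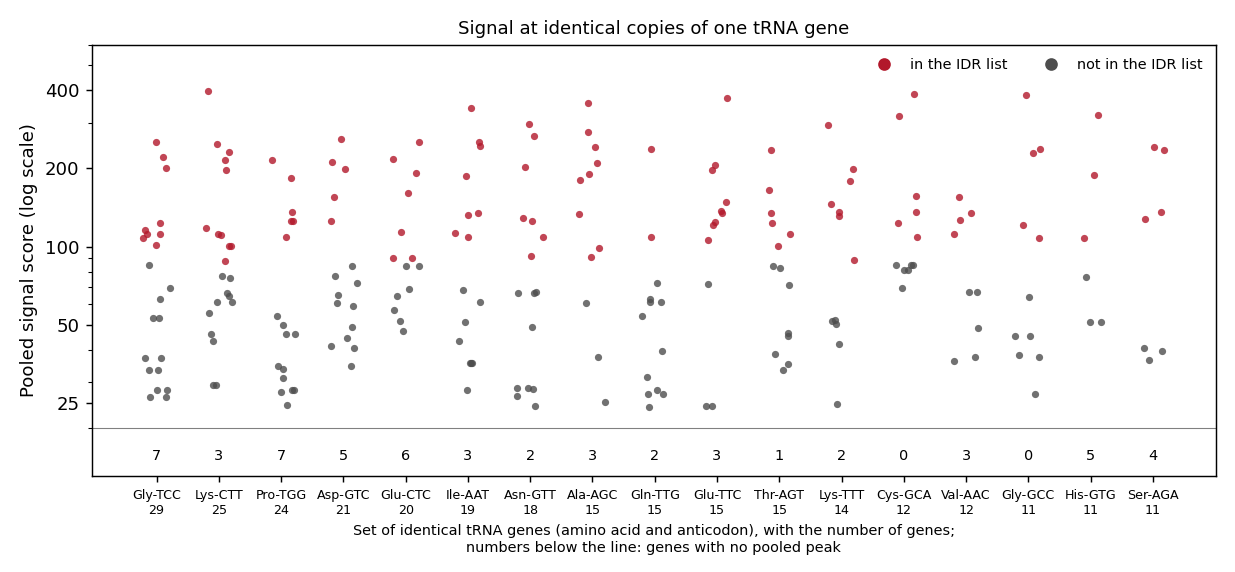
Pooled signal score (y axis, log scale) of each tRNA gene in the sets of 11 or more identical genes; red points are strong genes, grey points the other genes with a region, and the numbers under the line count genes with no pooled peak. Each point is a gene; neighbouring copies that share a peak have the same value. Every one of the 17 sets holds both strong and other genes. With 38.8% of all genes with an identical copy strong, sets this large would mostly do so if strong genes fell without regard to sequence.

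Counted by identical copies, a gene with a sequence of its own was strong less often than a gene with copies, but a split by unique 32-base words gave no such difference. Of the 143 genes with a sequence of their own, 32 were strong (22.4%, 16.3 to 29.9), with 23.8% and 19.6% in replicates 1 and 2. Of the 469 with an identical copy, 182 were strong (38.8%, 34.5 to 43.3), with 39.9% and 32.4%. The intervals do not overlap, and the order was the same in each replicate. When the genes were split instead at the median share of unique 32-base words, 34.3% of the more unique and 35.6% of the less unique genes were strong. That share also covers 100 bp to each side of the gene, so it does not measure copy number. The single genes differ in how close they are to any other tRNA gene. Of 18 that were more than 10 base changes from every other tRNA gene none was strong (0%, 0 to 17.6), while of 83 with 1 or 2 changes 20 were (24.1%), of 27 with 3 to 5 changes 8 were (29.6%) and of 15 with 6 to 10 changes 4 were (26.7%). Genes with an intron of their own, such as C04A11.t1 and F57F5.t1 (signal 340, rank 31), were strong in 11 of 29 (37.9%), close to the 34.8% of genes without one.

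Genes of low uniqueness had a region less often. Of 22 genes that are under 50% unique 5 had a region and none was strong, and these make up 17 of the 143 genes without a region. Of 76 genes at 50 to 75% unique 46 had a region and 16 were strong (21.1%), and of 497 at 75% to under 100% 406 had a region and 197 were strong (39.6%). Of the 17 genes that are 100% unique 12 had a region and 1 was strong. No strong gene was under 67.6% unique.

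Summits sat over the gene itself. Of the 411 regions, 210 (51.1%) had the summit inside the nearest tRNA gene, 100 upstream of it and 101 downstream. Among the strong ones 126 of 192 (65.6%) were inside and a further 64 within 100 bp, and none was more than 200 bp away. The median position was 38 bp from the 5′ end of the gene in the pooled list (quartiles 0 and 73.5), 39 bp in replicate 1 and 36 bp in replicate 2. The rule keeps summits up to 500 bp to either side, so summits scattered evenly would also have a median near the middle of the gene. The medians therefore do not show by themselves that summits gather there. The median signal fell with distance, from 113 inside the gene to 69.9 within 100 bp, 44.3 at 101 to 200 bp and 33.5 at 401 to 500 bp.

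The position was not shifted to 1 side of the gene beyond the resolution of the lists. Strong regions with no other tRNA gene within 1 kb had the summit at a median of -9 bp from the centre of plus-strand genes (n = 75) and -6.5 bp from that of minus-strand genes (n = 79), along the strand of the gene. In replicate 1 these were -6.5 and -13.5 bp, and in replicate 2 -9 and 21.8 bp. Most peaks are of a set width (a median of 420 bp in the pooled list), far longer than the gene, so the A box, the B box and the upstream site of TFIIIB cannot be told apart by position. At the limit of the rule, the regions just inside were at 482, 484 and 489 bp (Y95B8A.t1, Y73F8A.t1 and T22F3.t1, with signals of 54.2, 24.6 and 49.7). Those just outside were at 513, 524 and 525 bp (F49D11.t1, F14H8.t1 and F48E3.t1, with signals of 33.1, 25.3 and 24.4).

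**Figure D5:**
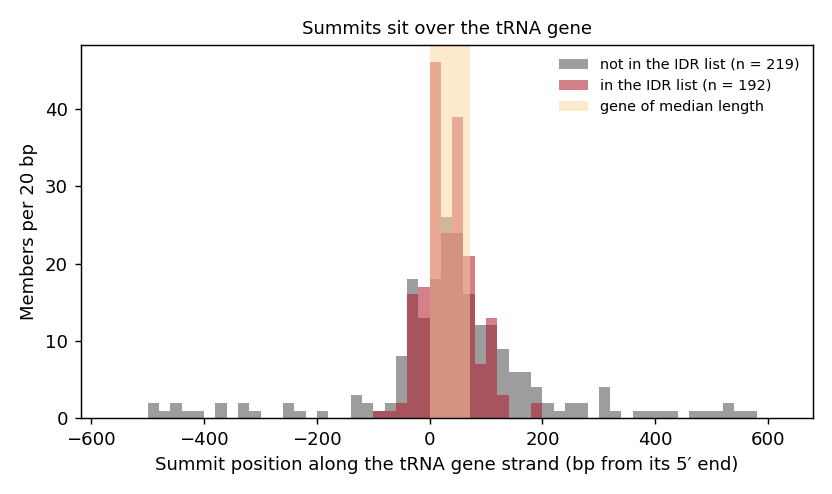
Number of tRNA regions per 20 bp (y axis) by the position of the summit along the strand of the nearest tRNA gene (x axis, bp from its 5′ end); red marks the 192 strong regions, grey the other 219, and the shaded band a gene of the median length. The strong regions gather over the gene and within 100 bp of it, and the others have tails to both sides.

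The internal promoter boxes were present in nearly all tRNA genes, strong or not. The B box GTTCNANNC was searched on both strands, as was the A box, and was found in 95.8% of the 214 strong genes, 97.6% of the 255 other genes with a region and 93.7% of the 143 genes without one. It occurs in 79.4% of 209 tRNA pseudogenes and in 2.44% of genome windows of 72 bp, the median length of a tRNA gene. The A box was found in 94.9%, 93.3% and 86.7% of the same 3 groups of genes, in 94.3% of pseudogenes and in 3.68% of genome windows. A run of 4 T within 20 bases after the gene was found in 99.1%, 98.4% and 97.2%, in 91.9% of pseudogenes and in 25.8% of genome windows of 20 bp. The presence of these letters therefore did not separate strong tRNA genes from the others. Of the 24 tRNA genes without an exact B box, 9 were strong, among them C16B8.t2, which shares its peak with C16B8.t3 (signal 184 pooled at rank 152, 119 in replicate 1 at rank 131 and 70.2 in replicate 2 at rank 174), and all 24 but 1 matched with 1 mismatch allowed.

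Most of the strong genes without the exact B box encode tRNA-Met. The 20 tRNA-Met genes fall into 9 identical genes in which the CAT anticodon was found by the search and that hold the B box, and 11 in which it was not found, 1 of them with the B box. Of the former 3 were strong in the IDR list, 6 in replicate 1 and 2 in replicate 2, and of the latter 6, 6 and 5. Of the latter, Y22D7AL.t3 shares its peak with the tRNA-Glu gene Y22D7AL.t4, which has the B box and holds the summit. F22F1.t6 shares its peak with F22F1.t5 and F22F1.t7, which also have the B box. At these the peak cannot be assigned to the gene without the B box. Eukaryotic initiator tRNA, which starts translation with methionine, is known to lack the usual T-loop sequence from which the B box is read; the annotation used here does not separate initiator from elongator genes. With 9 and 11 genes, these counts do not separate the groups.

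Of the tRNA pseudogenes, 83 of 209 (39.7%) had a pooled peak within 500 bp, and 3 had a strong region. C52E12.t1 on II, printed above, had a signal of 212 pooled (rank 113), 130 in replicate 1 (rank 108) and 72.7 in replicate 2 (rank 163), with the summit inside it. It differs by 5 base changes from the tRNA-Ala gene B0491.t2, and it holds the A box, the B box and the T run. The nearest tRNA gene is 1295 bp away, and the nearest snoRNA gene 9438 bp. The other 2 lay close to snoRNA genes. D1046.t1 on IV (signal 324, rank 39) had its summit 12 bp from a snoRNA gene and T08B2.t1 on I (signal 214, rank 111) had its summit 51 bp from one; they differ by 29 and 24 base changes from the nearest tRNA gene. At these 2 the signal of the pseudogene and of the snoRNA gene cannot be told apart. Nearly all pseudogenes, 197 of 209, are more than 10 base changes from any tRNA gene, and 2 of these were strong.

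Genes that encode the polymerase III machinery had a pooled peak about as often as other protein-coding genes. Of 17 matched genes for polymerase III subunits and its factors, 8 (47.1%) had a pooled peak from 1000 bp upstream to 500 bp downstream of the 5′ end, against 40.5% of 19973 protein-coding genes. A strong region lay at 1 of them (5.88%, against 1.65% of all): rpac-19, which encodes a subunit shared by polymerases I and III, with a signal of 128 (rank 259) and the summit at -111 bp. The genes with a weaker peak were snpc-4 (signal 49.2), which encodes a subunit of the snRNA gene activator SNAPc, mafr-1 (42.4), the homologue of the polymerase III repressor Maf1, rpb-10 (36.8), rpac-40 (35.6), rpb-8 (35.0), tbp-1 (31.4), the TATA-binding protein gene, and brf-1 (23.9), a TFIIIB subunit gene. The TFIIIC subunit genes tftc-1, tftc-3 and tftc-5 and the largest subunit genes rpc-1 and rpc-2 had no pooled peak in the window.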

How the data were processed

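Embryos with CEH-13::TY1::EGFP::3xFLAG were measured by anti-GFP ChIP-seq in 2 biological replicates. The authors' peak lists are of replicate 1, of replicate 2 and of both alignments pooled, each against 1 control alignment, and their IDR list derives from these, per the deposited file descriptions. Positions are of build ce11, per the labels. Not given in the sources used here are the peak caller, aligner, read length and IDR threshold. The deposited signal is a score of unstated scale, used within a list only. The authors also deposited −log10 of a q-value per peak. Depth is unknown because no read numbers are listed, and Wilson intervals cover the counting of genes or regions only.

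Ensembl release 115 gave 634 tRNA genes, of which 22 are mitochondrial and were left out; products came from RefSeq, and all 612 positions were the same in both. Coordinates and sequences are of the reference assembly, 1-based. A tRNA region was matched to a replicate by overlap, and the best rank was kept. Identity, base changes (edlib 1.3.9.post1), 32-base words and boxes were computed from the reference with Python 3.11.15, NumPy 2.4.6 and SciPy 1.17.1. The A box was searched by its usual consensus and the B box as GTTCNANNC, both on both strands, and the T run on the strand of the gene; printed capitals show matches on that strand only. Clusters join tRNA genes within 1 kb. With 1 group no test was made. Distances were tested on simulated data with 1 peak per gene. No kept peaks overlapped there, so the merging of peaks was not tested.

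Named genes are those of the 10 strongest regions, the strongest of each amino acid, the 3 strong regions whose ranks differ most, the highest and lowest copies of large identical sets, the pseudogenes with a strong region, the regions next to the 500 bp limit and a list of polymerase III genes; the genes of large clusters, host genes with the most tRNA genes, F57F5.t1 and C16B8.t2 were added after their values were seen. The members and lists were chosen with earlier results of these data known. Sequences with a copy on chromosome I are not printed. Alternatives were each replicate alone, other distance limits, no merging, a q-value limit, other cluster and copy definitions and a mismatch in the B box.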

Additional observations from a re-analysis of the deposited data

How the results depend on the processing

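The number of tRNA regions was 378 to 409 when 1 replicate was left out, 508 without merging, 386 at a limit of 250 bp, 532 at 1000 bp, 212 with the summit inside the gene and 240 with a q-value under 0.05; the last 2 keep fewer peaks by construction. The share of tRNA genes with a region was 69.9% to 76.3% in single replicates, 69.4% at a limit of 250 bp, 85.5% at 1000 bp, 35.0% with the summit inside the gene and 44.4% with a q-value under 0.05. The share with a strong region was 29.4% to 36.1% in single replicates, 20.6% with the summit inside the gene and 44.4% when a q-value under 0.05 was called strong. The median summit position was 33.5 bp over strong regions alone. In single replicates the strong share ran from 30.4% to 39.5% for intergenic genes, from 33.2% to 41.2% for genes with none near, and from 32.4% to 39.9% for genes with an identical copy. With copy number replaced by 32-base words, the genes at or above the median uniqueness stood at 34.3% and those below it at 35.6%. The words also cover the bases around the gene, so this split cannot decide whether the lower share of single-copy genes holds. The B box share was 99.8% with 1 mismatch. With regions not found given rank 30001, the rank agreement over all 411 regions was 0.834; it was 0.781 over strong regions alone and 0.870 over those found in both replicates. No paired analysis was possible because the series has 1 group. Depth is unknown, so a tRNA gene without a listed peak cannot be called unbound, and weak peaks beyond rank 10000 were at tRNA genes as often as the genome share.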
